A study of Danio rerio with 6 samples.

Results

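The long arm of zebrafish chromosome 4 was examined for accessible chromatin in heart muscle cells that overexpressed wt1b and in control heart muscle cells. Its members were the ATAC-seq peaks on chromosome 4 that start at or above 28 Mb, and there were 1151 of them among the 101999 peaks of 6 libraries. ATAC-seq maps open DNA as the places where the transposase Tn5 can insert sequencing adapters, and a peak is a stretch where such insertions pile up. The wt1b_OE larvae carried Tg(eGFP:5xUAS:wt1b; gcryst:cerulean)cn15 together with Tg(myl7:Gal4)cbg2Tg. The control larvae carried Tg(eGFP:5xUAS:RFP; gcryst:cerulean)cn15, again with Tg(myl7:Gal4)cbg2Tg. Both lines were of strain AB and 5 days post fertilisation, and GFP-positive cells were sorted from them. In both lines Gal4, a yeast activator, is made under the myl7 promoter of heart muscle and switches on the UAS transgene, so wt1b is forced on wherever myl7 is active. The other transgene marker, cerulean under a crystallin promoter, is also shared by both lines. The labels do not say whether the 3 libraries of a line came from separate clutches, so the p-values below measure the spread between these libraries, which may be technical. The labelled cell type was not checked against marker genes, since gene positions in this genome build were not used here.

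wt1b encodes a zinc-finger transcription factor of the WT1 family, known in the zebrafish for its roles in the kidney and in the epicardium, the outer layer of the heart. The long arm of chromosome 4 is a known heterochromatic arm of the zebrafish genome. It is rich in repeats, replicates late in S phase, and carries large families of immune receptor genes of the NLR type and of zinc-finger genes in many near-identical copies. In wild zebrafish strains its far end holds the main sex-determining region, a function that laboratory strains such as AB have lost. Heterochromatin is packed tightly and is in general poorly accessible to transposases. Positions below follow the deposited files, counted from 1, in build GRCz11, which the submitters' processing notes name. What genes or sequences lie there was not analysed here.

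The 3 wt1b_OE lists held 76, 56 and 49 peaks on the long arm in replicates 1, 2 and 3, and the 3 control lists held 374, 366 and 230. The whole lists were of very different length, with 4188 to 9452 peaks in wt1b_OE and 23705 to 30372 peaks in control libraries (scaffolds included). The lists carry no read counts, so the depth of the libraries is unknown. For this reason the long arm was set against the rest of the genome within each library. Fewer open sites and weaker libraries cannot be told apart by the number of peaks alone.

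The long arm was the most sparsely occupied part of the genome in every library. The peak density there was 1.52, 1.12 and 0.979 per Mb in wt1b_OE replicates 1, 2 and 3, and 7.48, 7.32 and 4.60 per Mb in control replicates 1, 2 and 3. On the other 24 chromosomes together it was 7.15, 3.13 and 3.12 per Mb in the wt1b_OE libraries and 22.7, 22.5 and 17.8 per Mb in the control libraries. When the 24 chromosomes and the 2 arms of chromosome 4 were ranked as 26 units, the long arm had the lowest density in 6 of 6 libraries. The next lowest unit was chromosome 9, at 5.53, 2.11 and 2.21 per Mb, in wt1b_OE replicates 1, 2 and 3. It was chromosome 22 in control replicate 1 (19.3 per Mb), chromosome 9 in control replicate 2 (19.98 per Mb) and chromosome 14 in control replicate 3 (14.8 per Mb). In each library every other unit thus lay above the long arm.

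Within each library, the density of the long arm divided by that of the other chromosomes was 0.213 (95% counting interval 0.167 to 0.266), 0.357 (0.269 to 0.465) and 0.314 (0.232 to 0.416) in wt1b_OE replicates 1, 2 and 3. The ratios were 0.329 (0.296 to 0.364), 0.325 (0.292 to 0.360) and 0.258 (0.226 to 0.294) in control replicates 1, 2 and 3. The interval of every library ended far below 1, and the values of the groups overlapped. The geometric mean over 6 libraries was 0.295, with an SD of 0.28 on the log2 scale. The exact two-sided sign-flip test gave p = 0.03125, the smallest that 6 libraries allow, with the ratio below 1 in 6 of 6. Adjusted by Benjamini-Hochberg over the 5 contrasts tested in this way, p was 0.0781, which misses 0.05. Arm lengths were taken up to the last peak end and include any gaps in the assembly, and how reads with several matching places were treated is not given in the sources used here. The part of either in the low density was not tested.

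The short arm of the same chromosome did not share this sparseness. It held 6.57, 3.50 and 3.14 peaks per Mb in wt1b_OE replicates 1, 2 and 3, and 25.1, 24.8 and 19.0 per Mb in control replicates 1, 2 and 3, close to the other chromosomes. The long arm had 0.231, 0.320 and 0.312 times the density of the short arm in the wt1b_OE libraries and 0.298, 0.295 and 0.242 times in the control libraries. The geometric mean was 0.281, below 1 in 6 of 6 libraries (exact sign-flip p = 0.03125, adjusted p = 0.0781).

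**Figure D1:**
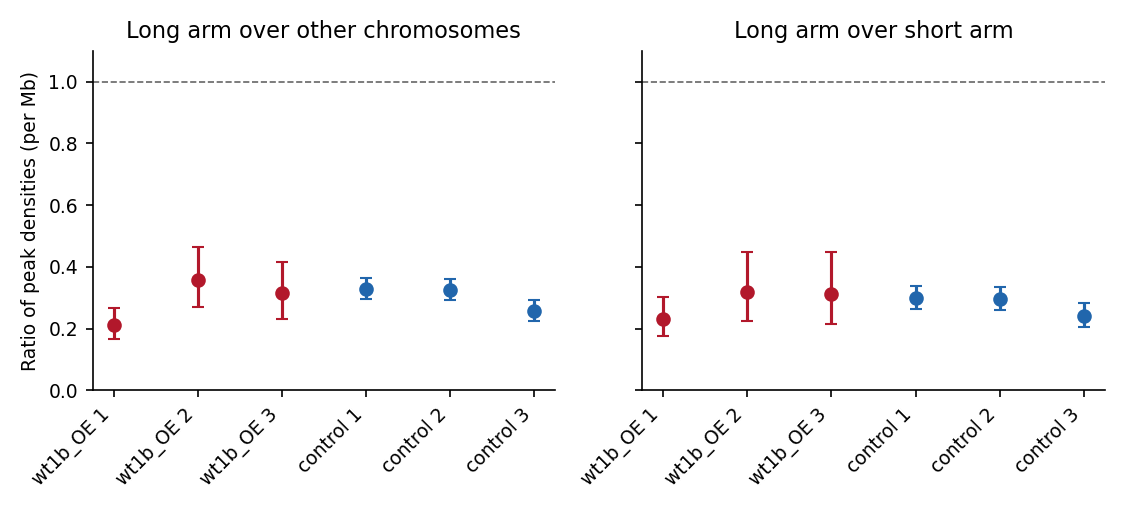
Peak density of the long arm divided by that of the other chromosomes (left) and of the short arm (right), for each library. Points are single libraries, wt1b_OE in red and control in blue, bars are exact 95% intervals of the counting error, and the dashed line marks equal density. All ratios lie between 0.213 and 0.357 on the left and between 0.231 and 0.320 on the right.

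The arm was not uniform. In control libraries the first Mb past the boundary was as dense as the short arm, the next Mb was already sparser, and peaks were rare from 31 Mb until about 72 Mb. The first window of 1 Mb, from 28 to 29 Mb, held 18, 14 and 14 peaks in wt1b_OE replicates 1, 2 and 3, and 37, 36 and 21 in control replicates 1, 2 and 3. The last Mb of the short arm held 6, 0 and 2 peaks in the wt1b_OE libraries and 28, 19 and 17 in the control libraries, so the boundary at 28 Mb itself marked no drop. The first peak inside the boundary began at 28024772 and the last one outside began at 27970204 over all lists. Their widths were 368 bp, in control replicate 1, and 291 bp, in control replicate 2. From 29 to 30 Mb there were 0, 2 and 1 peaks in the wt1b_OE libraries and 15, 10 and 7 in the control libraries, below the medians of 6, 3 and 3 and of 22, 21 and 17 peaks per window of the other chromosomes in the same libraries. From 31 to 32 Mb only 3, 0 and 0 peaks were listed in wt1b_OE and 4, 2 and 3 in control libraries.

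The arm was therefore described in 3 stretches, with limits set after this profile had been seen and with no test. From 28 to 30 Mb there were 18, 16 and 15 peaks in wt1b_OE replicates 1, 2 and 3, and 52, 46 and 28 in control replicates 1, 2 and 3. This proximal stretch held 23.7%, 28.6% and 30.6% of the long arm peaks of the wt1b_OE libraries, against 13.9%, 12.6% and 12.2% of those of the control libraries, and the groups did not overlap. Relative to the other chromosomes of the same library its density was 1.26, 2.55 and 2.40 in wt1b_OE and 1.14, 1.02 and 0.786 in control libraries. These values rest on the first Mb, since the window from 29 to 30 Mb lay below the genome level in every library. In the wt1b_OE libraries they rest largely on one block of 100 kb that starts at 28500001, which held 13, 10 and 11 of the 18, 16 and 15 peaks. The stretch also holds 7 regions called in all 6 libraries. Sites listed in every library make up a larger share of a shorter list. The group differences in this stretch can thus not be read apart from list length.

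The interior, the 42 Mb from 30 to 72 Mb, held the sparse part of the arm. It had 33, 24 and 28 peaks in wt1b_OE replicates 1, 2 and 3, and 183, 193 and 115 in control replicates 1, 2 and 3. Its density relative to the other chromosomes was 0.110, 0.182 and 0.214 in the wt1b_OE libraries and 0.192, 0.204 and 0.154 in the control libraries. These values overlapped between the groups.

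The distal stretch, from 72 Mb to the last peak end at 78029900, held 25, 16 and 6 peaks in wt1b_OE replicates 1, 2 and 3, and 139, 127 and 87 in control replicates 1, 2 and 3. Its density relative to the other chromosomes was 0.580, 0.847 and 0.319 in wt1b_OE and 1.01, 0.936 and 0.810 in control libraries. The control lists thus returned close to the genome's density at the chromosome end. Among the wt1b_OE libraries, replicate 3 stayed well below its own genome level, while replicate 2 lay within the range of the control values. Windows were also ranked by their counts summed over libraries, each divided by its list length. By this list-corrected count the last complete window, from 77 to 78 Mb, was the densest after the first one. It held 8, 6 and 4 peaks in the wt1b_OE libraries and 34, 33 and 23 in the control libraries. In control replicate 3 it held more peaks than the first window, which had 21. The next windows by list-corrected count were those from 76 to 77 Mb, 74 to 75 Mb and 75 to 76 Mb, all in the same stretch.

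**Figure D2:**
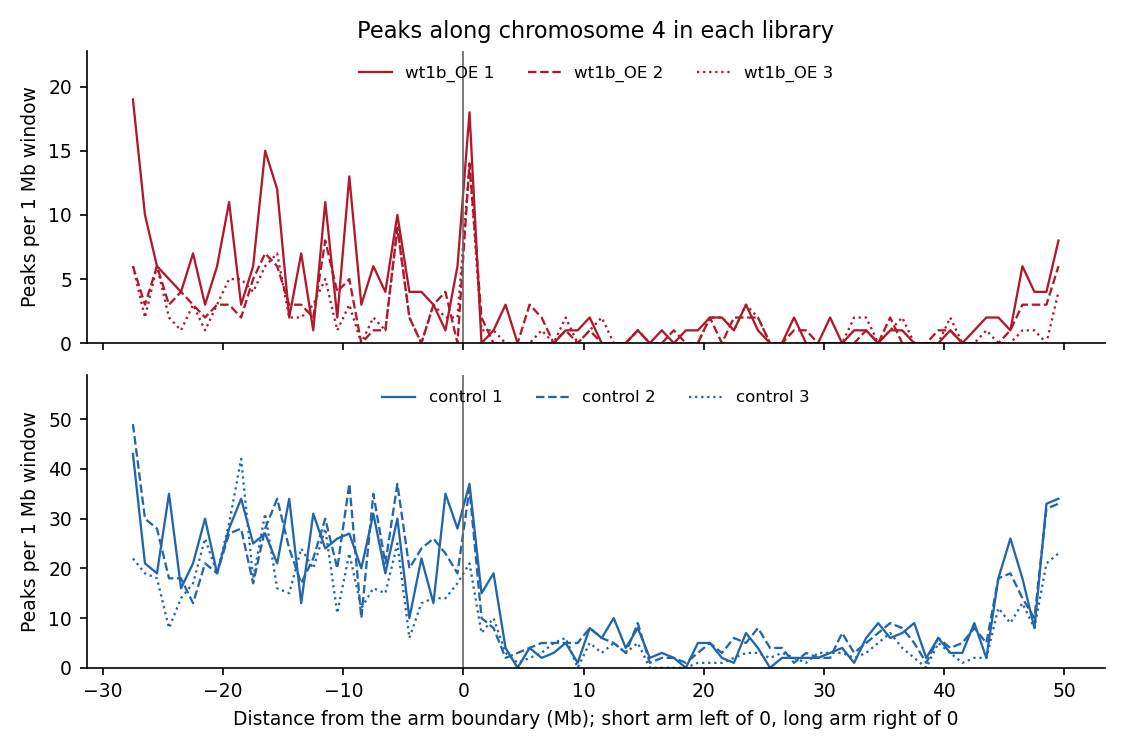
Peaks per window of 1 Mb along chromosome 4, as distance from the boundary between the arms in Mb, for the 3 wt1b_OE libraries (above) and the 3 control libraries (below), each a line of its own. In all 6 libraries the first window right of 0 is high, with 14 to 18 peaks in wt1b_OE and 21 to 37 in control libraries, and a long trough follows, which in the control libraries ends about 6 Mb before the chromosome end. The vertical scales differ between the panels.

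The trough showed in empty windows. Of the 50 complete windows of the long arm, 20, 27 and 28 held no peak in wt1b_OE replicates 1, 2 and 3, and 3, 0 and 6 held none in control replicates 1, 2 and 3. Of 1258 windows on the other chromosomes, 33, 156 and 147 were empty in the wt1b_OE libraries and 0, 0 and 1 in the control libraries. As shares, 40%, 54% and 56% of the long arm windows were empty in wt1b_OE libraries, against 2.62%, 12.4% and 11.7% of the windows elsewhere. The longest stretch between neighbouring peaks of the arm measured 4713, 5121 and 7188 kb in wt1b_OE replicates 1, 2 and 3, and 1994, 1622 and 4604 kb in control replicates 1, 2 and 3. On the other chromosomes the longest measured 2219, 4544 and 4161 kb in the wt1b_OE libraries and 846, 760 and 1684 kb in the control libraries. In wt1b_OE replicate 2 the arm was thus near the rest in this measure. Over the 6 lists together the longest stretch without any peak ran from 45532290 to 46981836, which is 1450 kb, against 760 kb for the longest on the other chromosomes.

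Between the lines, the arm held fewer peaks in wt1b_OE libraries, by a factor like that of the whole list. It averaged 60.3 ± 14.0 peaks in wt1b_OE and 323 ± 80.9 peaks in control libraries (SD, n = 3 each; exact two-sided permutation p = 0.1, the smallest that 3 against 3 allow). Without overlap between the groups, control libraries had 5.36 times as many peaks on the long arm and 4.71 times as many on the other chromosomes. In covered length, peaks took up 39.2 ± 5.73 kb of the arm in wt1b_OE and 151 ± 26.7 kb in control libraries (SD, n = 3 each), 3.84 times as much in control libraries, where the factor on the other chromosomes was 4.50. As a share of its own list, the long arm made up 0.816%, 1.36% and 1.198% in wt1b_OE replicates 1, 2 and 3, and 1.25%, 1.24% and 0.986% in control replicates 1, 2 and 3. The means were 1.12% ± 0.278 in wt1b_OE and 1.16% ± 0.150 in control libraries (SD, n = 3 each). The difference of -0.034 percentage points was smaller than the spread within either group (exact permutation p = 0.8), and its sign turned in several alternatives. The arm covers 3.72% of the assembled length by the same measure.

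Few sites of the arm had a peak in every library, and those that did included some of the highest-ranked peaks by score times width. When overlapping peaks of all lists were merged, the arm held 811 regions, of which 662 (81.6%) came from a single library, against 82.9% on the other chromosomes. In all 6 libraries, 14 regions were called, which is 1.73% of the regions of the arm, where 1.81% of all merged regions of the genome met this rule. The share on the arm was thus near that of the genome. Of the 14 regions, 7 lay between 28.5 and 28.8 Mb, 4 in the interior and 3 in the distal stretch.

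The strongest was the region on chromosome 4 from 77558010 to 77561688, near the end of the arm. Peaks covered 3305, 3346 and 3613 bp of it in wt1b_OE replicates 1, 2 and 3, and 3604, 3185 and 3523 bp in control replicates 1, 2 and 3. Ranked by score times width within each whole list, it came 5th, 3rd and 1st in the wt1b_OE libraries and 2nd, 21st and 3rd in the control libraries. It was among the highest-ranked peaks of every library, and the groups overlapped in width. Its neighbour from 77555374 to 77557340 was covered over 1586, 1530 and 1585 bp in the wt1b_OE libraries and 1131, 1360 and 1947 bp in the control libraries.

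A second cluster lay just inside the boundary, where 6 regions called in every library sat within 39.6 kb, from 28555405 to 28594974. The strongest of them, from 28585083 to 28588308, was covered over 2846, 1687 and 2090 bp in wt1b_OE replicates 1, 2 and 3, and 2811, 3109 and 2797 bp in control replicates 1, 2 and 3. Its best ranks were 14, 102 and 61 in the wt1b_OE libraries and 7, 15 and 11 in the control libraries. The region from 28565717 to 28567815 was covered over 1740, 2099 and 1041 bp in the wt1b_OE libraries and 1402, 1797 and 1603 bp in the control libraries. The same block of 100 kb held 13, 10 and 11 peaks in the wt1b_OE libraries and 15, 20 and 11 in the control libraries. Here the counts of the groups overlapped, although the wt1b_OE lists are far shorter. The block was picked, after the values were seen, for the highest count on the arm after division by list length. It holds the 6 regions chosen for a peak in every library. Similar counts in the groups were thus in part fixed by these choices.

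Inside the trough, a pair of regions stood out by rank. The region from 36250715 to 36252584 was covered over 1399, 1476 and 1237 bp in wt1b_OE replicates 1, 2 and 3, and 1694, 1436 and 1553 bp in control replicates 1, 2 and 3. It ranked 55, 26 and 41 in the wt1b_OE libraries and 31, 67 and 41 in the control libraries. All 6 of its peaks had the limiting score of 1000. The region from 48615684 to 48618695 was covered over 2066, 2727 and 2811 bp in the wt1b_OE libraries and 1680, 1611 and 2938 bp in the control libraries, ranking between 5 and 310. Both were called in all libraries in the part of the arm where peaks were rarest. How reads with several matching places were treated is not given, and their part in such peaks was not tested.

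Across the 14 regions, the mean covered length was higher in wt1b_OE libraries at 7 and higher in control libraries at the other 7. At 0 of the 14 regions were the covered lengths of the groups apart without overlap. The weakest by mean rank among the 14 was the 283 bp from 63365092 to 63365374 with ranks from 2634 to 17443, although its score was at the limit in all 6 libraries. No single one of these sites thus separated the lines by covered length. They were chosen for having a peak in every library, and without read counts their degree of accessibility could not be compared.

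**Figure D3:**
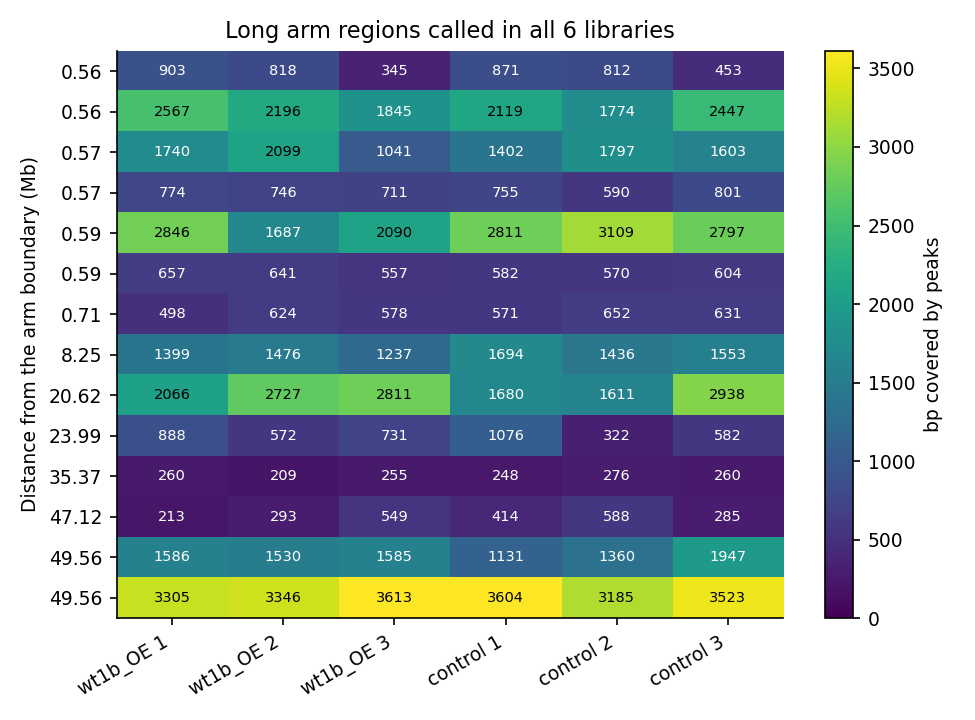
Base pairs covered by peaks at the 14 long arm regions called in all 6 libraries, ordered by distance from the arm boundary in Mb, with the 3 wt1b_OE libraries left of the 3 control libraries. Values are printed in the cells. The last row, near the chromosome end, holds the widest region, at 3185 to 3613 bp in every library, and at every region the values of the groups overlap.

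Regions called in one group alone were few. In all 3 wt1b_OE libraries and no control library there were 2 regions on the arm, which is 0.247% of its 811 regions, where 0.0112% of all 71293 merged regions met this rule. These 2 were among 8 such regions of the genome, and with counts this small no test was made. For any one such region, an exact permutation test of 3 against 3 libraries could give no p under 0.1. The first region lay from 38282283 to 38283008 and was covered over 326, 543 and 537 bp in wt1b_OE replicates 1, 2 and 3, with scores of 698, 445 and 760 and ranks of 7197, 2655 and 1216. The nearest peaks of control replicates 1, 2 and 3 were 56824, 19684 and 56568 bp away. The second region lay from 42760541 to 42760964 and was covered over 296, 424 and 314 bp, each time at the limiting score of 1000. Its ranks were 4832, 946 and 1864, and the nearest control peaks were 45971 to 118823 bp away. Both lie in the sparse interior. The lists they rank in hold 9310, 4122 and 4091 peaks, so the ranks ran from the lower part of a list, for the first region in replicate 1, to the upper part, for the second region in replicate 2.

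In all 3 control libraries and no wt1b_OE library there were 17 regions on the arm, 2.10% of its regions, where 0.825% of all merged regions met the rule. Of the 17 regions, 13 lay in the interior, 3 in the distal and 1 in the proximal stretch. Some were close neighbours, such as those from 40693527 to 40693818 and from 40693934 to 40695084. The same held for those from 63537426 to 63537711 and from 63537831 to 63538099, so the 17 are not all separate sites. Spans of the 17 ran from 257 to 1239 bp and their mean ranks from 2371 to 19859. Single ranks of some were far better, such as 158 in control replicate 2 for the region from 40693934 to 40695084. The 5 with the best mean rank began with the one from 62331275 to 62332513, covered over 1001, 1117 and 799 bp in control replicates 1, 2 and 3 at scores of 460, 730 and 576. The others lay from 34141819 to 34142439, from 61802173 to 61803172, from 70365624 to 70366442 and from 40693934. Many of these ranks lie beyond the length of the wt1b_OE lists, which end at 4091 to 9310 peaks. For such regions a loss of accessibility was not detectable from the absence of a peak. The region from 62331275 ranked 2764, 583 and 3766 in control replicates 1, 2 and 3, within the length of even the shortest wt1b_OE list. Whether accessibility was lost at any of these regions was not tested, as the lists hold no read counts.

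List length was then removed by keeping the 4091 strongest peaks of each list by score and then width. The long arm kept 31, 55 and 49 of these peaks in wt1b_OE replicates 1, 2 and 3, and 55, 39 and 33 in control replicates 1, 2 and 3. The values of the groups overlapped. Of 149 merged regions, 7 (4.70%) were called in all 6 libraries, where 5.18% of all regions were. In all wt1b_OE libraries alone there were 4 regions (2.68%), where 0.954% of all regions met the rule, and in all control libraries alone 2 regions (1.34%), where 0.374% did. Of the 4 wt1b_OE regions, 3 overlapped peaks in 2 or 3 of the full control lists. The exception was the region from 42760541 to 42760964 already described. Those from 77555374 to 77556739 and from 77556744 to 77557249 were parts of the same region called in all 6 full lists. In control replicates 1, 2 and 3 that region had scores of 933, 975 and 978, under the limit, so its control peaks were not kept. The region from 68105050 to 68106132 ranked 265 in control replicate 1 by score times width. The 4 are thus not all separate sites, nor all without strong control peaks. The 2 control regions, from 35934800 to 35935573 and from 70365624 to 70366442, overlapped no peak of any full wt1b_OE list. Since control peaks kept here all sat at the score limit, their choice rests on width.

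The sharing of single peaks was not set apart from that of the genome in full lists. In lists of equal size it was lower on the long arm in 6 of 6 libraries, but some other choices of peaks turned the sign. Of the long arm peaks, 75%, 80.4% and 77.6% in wt1b_OE replicates 1, 2 and 3 overlapped a peak of any other library, and 29.4%, 35.2% and 47.8% did so in control replicates 1, 2 and 3. On the other chromosomes these shares were 75.6%, 85.1% and 86.4% in the wt1b_OE libraries and 24.5%, 35.0% and 40.3% in the control libraries. The mean difference, long arm minus other chromosomes, was -0.259 percentage points over 6 libraries (exact sign-flip p = 0.875, adjusted p = 0.875; above 0 in 3 of 6). At equal list size it was -7.37 points (exact sign-flip p = 0.03125, the smallest possible, adjusted p = 0.0521; below 0 in 6 of 6), with -0.303 points in wt1b_OE replicate 1. Control peaks kept there were all at the score limit, so shared sites with lower control scores lost their control peaks. The mean difference was -3.95 points with the boundary at 30 Mb. It was 0.962 in the stronger 50%, 0.283 with overlap of 50% of both peaks and 5.05 under the score limit. In full lists the difference was below 0 in all 3 wt1b_OE libraries, at -4.72 ± 4.09 points. There it was above 0 in all 3 control libraries, at 4.20 ± 3.69 points (SD, n = 3 each, exact permutation p = 0.1 between groups).

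Set against control lists alone, 69.7% (95% interval 58.1% to 79.8%), 75% (61.6% to 85.6%) and 71.4% (56.7% to 83.4%) of the long arm peaks of wt1b_OE replicates 1, 2 and 3 overlapped a control peak. On the other chromosomes it was 73.9%, 82.3% and 84.0%. The long arm share was lower in 3 of 3 libraries, with a mean difference of -8.03 ± 4.25 percentage points (SD, n = 3), but 3 libraries allow no exact sign-flip p under 0.25. In replicates 1 and 2 the genome value lay inside the interval of the arm, and in replicate 3 it lay above it. In replicate 3 the margin was small, since the interval of its genome value, 82.8% to 85.1%, overlapped that of the arm. These intervals take peaks as independent of each other.

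**Figure D4:**
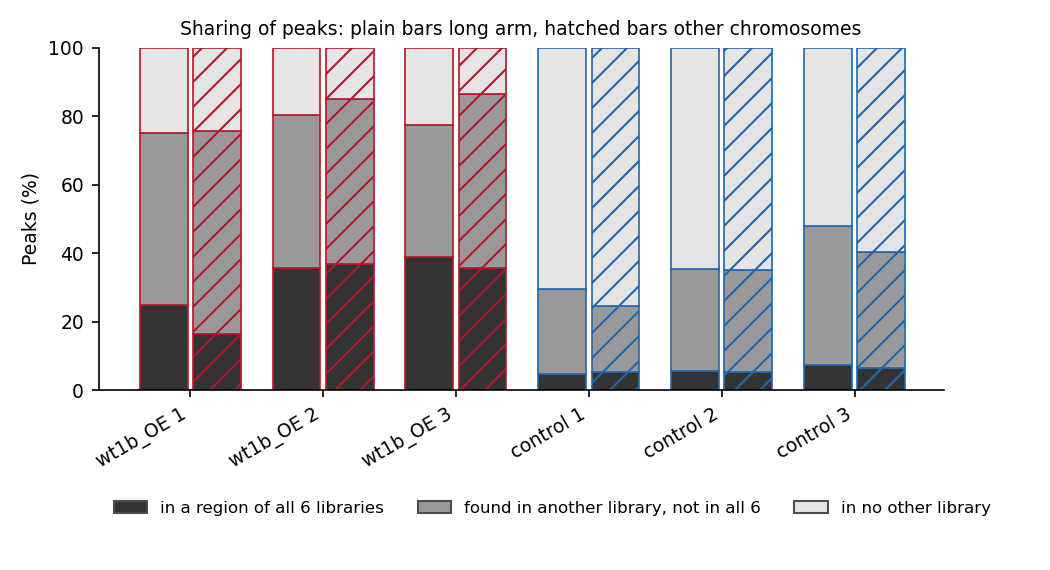
Share of peaks in percent that lie in a region of all 6 libraries (dark), that overlap another library without being in all 6 (grey), or that overlap none (light), for the long arm (plain bars) and the other chromosomes (hatched bars) of each library. Peaks found in no other library make up 19.6% to 25.0% of the long arm peaks in wt1b_OE libraries and 52.2% to 70.6% in control libraries. On the other chromosomes the ranges are 13.6% to 24.4% and 59.7% to 75.5%.

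Overlap in base pairs was on average highest among the wt1b_OE libraries. The overlap of each pair of lists was taken as the Jaccard index, their common base pairs over all base pairs that either covers. On the long arm it averaged 0.356 over the 3 wt1b_OE pairs, with a range of 0.321 to 0.387. It averaged 0.136 over the 9 mixed pairs, ranging from 0.103 to 0.195, and 0.138 over the 3 control pairs, ranging from 0.121 to 0.165. On the other chromosomes the means were 0.228 for wt1b_OE pairs, 0.0991 for mixed pairs and 0.0975 for control pairs. With lists of equal size, the long arm means were 0.375 for wt1b_OE pairs, 0.277 for mixed pairs and 0.284 for control pairs. The excess of pairs within groups over pairs across groups was 0.111 in full lists and 0.052 at equal size (exact one-sided permutation p = 0.1 in both, the smallest possible). In both settings the control pairs lay near the mixed pairs, so the excess rested on the wt1b_OE pairs. The index of a pair cannot exceed the smaller covered length over the larger. Full control lists cover far more than wt1b_OE lists, on the arm and elsewhere, which limits the mixed pairs. The excess in full lists and its p can therefore not be read apart from list length. At equal size the highest mixed pair, at 0.372, lay slightly above the lowest wt1b_OE pair, at 0.371. On the other chromosomes at equal size, the means were 0.272 for wt1b_OE pairs, 0.228 for mixed pairs and 0.205 for control pairs. There the highest mixed pair, at 0.296, lay above the highest wt1b_OE pair, at 0.283. The excess on the other chromosomes was 0.064 in full lists (exact permutation p = 0.1) and 0.010 at equal size (exact permutation p = 0.2). The difference between the arm and the rest in this excess was not tested.

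The median long arm peak was broader than the median of the other chromosomes in the 3 wt1b_OE libraries and slightly narrower in the 3 control libraries. Their median width was 476, 535.5 and 528 bp in wt1b_OE replicates 1, 2 and 3, against 418, 415 and 448 bp on the other chromosomes. In control replicates 1, 2 and 3 it was 407, 366.5 and 445 bp on the long arm and 413, 369 and 462 bp on the other chromosomes. The difference, long arm minus other chromosomes, was 86.2 ± 31.7 bp in wt1b_OE and -8.50 ± 7.57 bp in control libraries (SD, n = 3 each; exact permutation p = 0.1). Over all 6 libraries it averaged 38.8 bp (exact sign-flip p = 0.25, adjusted p = 0.417; above 0 in 3 of 6). At equal list size the difference was 113, 114 and 80 bp in the wt1b_OE libraries and -33, 116 and -103 bp in the control libraries, so that the groups overlapped. The control peaks kept at equal size all sat at the score limit and were thus chosen by width. These values therefore cannot decide whether the groups differ in width. In the stronger 50% of each list the difference was above 0 in 6 of 6 libraries, at 125.5, 134 and 240 bp in the wt1b_OE libraries and 57.5, 2.5 and 52 bp in the control libraries (exact sign-flip p = 0.03125, adjusted p = 0.0521). The narrower long arm medians of the control libraries were not kept there. That 50% was chosen by score times width, so width itself entered the choice and this is no separate check of width.

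Broad peaks made up a larger share of the long arm peaks in wt1b_OE than in control libraries, without overlap (exact permutation p = 0.1). Peaks of at least 1000 bp made up 11.8%, 12.5% and 20.4% of the long arm peaks in wt1b_OE replicates 1, 2 and 3, that is 9, 7 and 10 peaks. They made up 3.48%, 2.46% and 5.65% in control replicates 1, 2 and 3, that is 13, 9 and 13 peaks. On the other chromosomes the shares were 2.30%, 2.34% and 3.11% in the wt1b_OE libraries and 1.28%, 1.098% and 2.34% in the control libraries, with a higher mean in wt1b_OE there too but with overlap (exact permutation p = 0.2). On the short arm the shares were 1.09%, 0% and 1.14% in the wt1b_OE libraries and 0.855%, 1.15% and 1.504% in the control libraries. The numbers of broad peaks on the long arm thus lay near each other in lists whose totals on the arm differed 5.36-fold. The larger share in wt1b_OE libraries came without a larger number of such peaks on average. In each library some of them lay in regions called in all 6 libraries. The part of list length in the share was not tested.

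The regions called in every library held 19, 20 and 19 long arm peaks in wt1b_OE replicates 1, 2 and 3, and 18, 21 and 17 in control replicates 1, 2 and 3. Each library has a peak in each of them by rule, so their share is bound to be higher in shorter lists. They held 25.0%, 35.7% and 38.8% of the long arm peaks in wt1b_OE replicates 1, 2 and 3, and 4.81%, 5.74% and 7.39% in control replicates 1, 2 and 3. In covered base pairs their share was 43.1%, 51.4% and 51.3% in the wt1b_OE libraries and 10.8%, 11.7% and 16.7% in the control libraries. On the other chromosomes, regions called in every library held 16.4%, 36.8% and 35.7% of the wt1b_OE peaks and 5.19%, 5.4% and 6.43% of the control peaks. In covered base pairs the shares there were 21.8%, 41.3% and 40.3% in wt1b_OE and 6.64%, 8.35% and 8.73% in control libraries. The shares were thus higher in wt1b_OE libraries elsewhere too. Peaks outside these regions had a median width of 407, 484.5 and 465.5 bp on the long arm in the wt1b_OE libraries, against 406, 403 and 431 bp on the other chromosomes. In the control libraries they had 395, 360 and 433 bp on the long arm and 411, 363 and 456 bp elsewhere. Without the regions of all 6 libraries the long arm median was thus still above that of the other chromosomes in wt1b_OE replicates 2 and 3 and nearly equal to it in replicate 1.

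**Figure D5:**
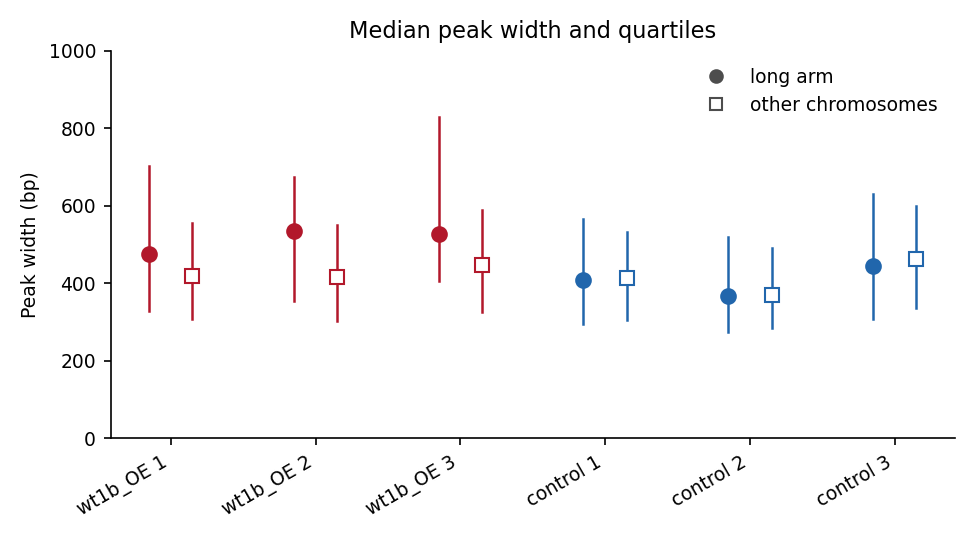
Median peak width in bp for the long arm (filled circles) and the other chromosomes (open squares) of each library, with lines from the lower to the upper quartile. The wt1b_OE libraries, in red, have medians of 476 to 535.5 bp on the long arm, above their own values elsewhere of 415 to 448 bp. In the control libraries, in blue, the 2 values differ by 17 bp at most.

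Strength, as far as the lists record it, was not set apart from the genome by its test. The score is limited to 1000, and 39.5%, 35.7% and 26.5% of the long arm peaks were at that limit in wt1b_OE replicates 1, 2 and 3, and 21.9%, 37.4% and 24.3% in control replicates 1, 2 and 3. On the other chromosomes the shares were 42.7%, 35.99% and 35.4% in the wt1b_OE libraries and 20.5%, 35.4% and 24.4% in the control libraries. The mean difference was -1.49 percentage points (exact sign-flip p = 0.469, adjusted p = 0.586; below 0 in 4 of 6 libraries). With the boundary at 30 Mb it was -6.46 points (exact sign-flip p = 0.125, adjusted p = 0.208). By score times width, the median long arm peak stood at 45.5%, 37.7% and 47.2% of the way down the list in the wt1b_OE libraries and at 53.0%, 49.0% and 56.9% in the control libraries, where 50% marks the middle of a list. By this measure, which includes width, long arm peaks of wt1b_OE libraries thus stood somewhat above the middle of their lists. The groups did not overlap (exact permutation p = 0.1). The difference in the share at the score limit, long arm minus other chromosomes, went the other way. It was -4.11 ± 4.34 percentage points in wt1b_OE and 1.13 ± 1.07 points in control libraries (SD, n = 3 each, exact permutation p = 0.1).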

How the data were processed

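ATAC-seq peaks were analysed in 3 wt1b_OE and 3 control libraries, grouped and numbered by their titles. The authors deposited 1 peak list per library with a whole-number score for each peak; all scores used here are the authors' and served only to rank or filter peaks within a list. Genrich, a peak caller, and Bowtie2, an aligner, are among the tools that the submitters' processing notes name, without versions or roles, as is build GRCz11. The deposited lists give no read counts, so depth is unknown and intervals (exact Clopper-Pearson, 95%) cover the counting error of peaks only.

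Results used the 25 chromosomes. Chromosome lengths were taken as the greatest peak end over the 6 lists. An overlap of 1 bp or more counted as shared. Contrasts within libraries were tested with exact sign-flip tests and contrasts between groups with exact permutation tests (scipy 1.17.1). Counting functions gave equal results to bedtools 2.31.1 in 11 of 11 checks and recovered what was planted in simulated lists in 8 of 8 checks. Named regions were those with the best mean rank within lists: 5 called in all libraries, and up to 5 called in one group alone. The neighbour from 77555374, the block of 100 kb from 28500001, the weakest shared region and the regions at equal list size were named after their values were seen. Members and lists were chosen with earlier results of these data known. Gene starts, GC content, repeats and gene families were planned but need a genome or annotation of this build, and were not analysed here.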

Additional observations from a re-analysis of the deposited data

Results flagged for a closer look

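The median width, long arm minus other chromosomes, was above 0 in all 3 wt1b_OE libraries and below 0 in all 3 control libraries, a difference between the groups of 94.7 bp (exact permutation p = 0.1, the smallest possible). At equal list size the exact permutation p was 0.4 and the groups overlapped, but the control peaks kept there were chosen by width. The opposite signs did not hold in the stronger 50% of each list, where the control libraries had 57.5, 2.5 and 52 bp, or with peaks under the score limit, where they had 0, 17 and 11.5 bp. The stronger 50% was chosen by score times width, so width entered that choice. The share of peaks found in another library, long arm minus other chromosomes, was below 0 in all wt1b_OE and above 0 in all control libraries, a difference of -8.92 percentage points (exact permutation p = 0.1). At equal list size it was below 0 in all 6 libraries (exact permutation p = 0.7 between groups), and the opposite signs did not hold with the boundary at 30 Mb, in the stronger 50% or under the score limit either. Whether list length accounts for either was not tested.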

How the results depend on the processing

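The density ratios stayed below 1 in all alternatives: 0.244 to 0.308 against the other chromosomes in 4 alternatives and 0.225 to 0.304 against the short arm in 3, and 0.284 to 0.315 and 0.274 to 0.292 when 1 library was left out (exact sign-flip p = 0.0625, the smallest that 5 libraries allow). The share of the list on the arm, wt1b_OE minus control, turned to 0.065 points at equal list size, 0.174 in the stronger 50% of each list and 0.058 with peaks under the score limit, and ran from -0.151 to 0.120 with 1 library left out. The share found in another library turned to 0.962 points in the stronger 50%, 0.283 with overlap of 50% of both peaks and 5.05 under the score limit, was -7.37 at equal size (exact sign-flip p = 0.03125, adjusted p = 0.0521) and -3.95 with the boundary at 30 Mb, and ran from -2.34 to 1.52 with 1 library left out. The share of wt1b_OE peaks found in a control list, long arm minus other chromosomes, moved from -8.03 to -15.9 points with the boundary at 30 Mb, -13.1 at equal size, -3.71 with overlap of 50%, and -14.0 without regions of all 6 libraries, an alternative chosen after seeing the data; with 1 library left out it ran from -9.96 to -4.80. Regions of all wt1b_OE libraries alone numbered 4 at equal size (parts of a single shared region counted apart), 0 in the stronger 50% and 2 to 3 with 1 library left out. Those of all control libraries alone numbered 2 at equal size, 11 in the stronger 50%, and 18 to 44 with 1 library left out, being 44, 34 and 42 without control replicate 1, 2 or 3, when only 2 libraries must meet the rule. The cause of the other shifts was not tested. The mean width difference over 6 libraries stayed above 0, from 12.5 to 102 bp over its alternatives and 22.5 to 50 bp with 1 library left out, but the control libraries, all below 0 in full lists, were all above 0 in the stronger 50% and at 0 or above under the score limit. Width entered the choice of peaks both at equal list size and in the stronger 50%. The share at the score limit was -6.46 points with the boundary at 30 Mb, -1.52 at equal size and -2.28 in the stronger 50%. At equal size all control peaks kept were at the limit, so the control differences were fixed at 0 and that value is no check. With 1 library left out, the share at the score limit ran from -2.19 to -0.023 points, the Jaccard excess from 0.047 to 0.180 and the ratio of peak numbers from 0.160 to 0.207.

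The replicate block gave -0.034 points for the share of the list (exact sign-flip p = 1, smallest possible 0.25) and 0.188 for the ratio of peak numbers (p = 0.25, exact), and changed no call. The numbers of the replicates were not taken to pair libraries, since over long arm regions the deviations of same-numbered libraries from their group means correlated at -0.012, 0.0021 and -0.065. Density without assembly gaps was not run, as it needs a genome.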
